A study of Mus musculus with 9 samples.

Results

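Interferon response genes are the genes that cells switch on when interferon reaches its receptors. Here 52 such genes, given by symbol, were followed through RNA-seq of the mouse myocardium in a model of diabetic cardiomyopathy. The rule names symbols, and no measured value enters it, but the members were chosen with earlier results of these data known. Of the 52 members, 46 had a row among the 22851 genes of the count matrix, and Gbp4, Gbp6, Gbp9, Ifi47, Tgtp1 and Tgtp2 were not analysed here. Of the 46 with a row, 45 passed the filter on low counts, the exception being Igtp, with 5 counts summed over the 9 libraries. All animals were male C57BL/6J mice, 6 to 8 weeks old when they entered the study, and each group had 3 libraries. CK mice, the control check group, had received citrate buffer. DCM mice had been injected once with streptozotocin (STZ) at 180 mg/kg, a toxin of the pancreatic beta cell that brings on type 1 diabetes, and were kept for 12 weeks. SPM mice had received the same STZ injection and also spermine, a polyamine, at 1 mg/kg/day, daily for 2 weeks before STZ and every other day during the 12 weeks after it. STZ is thus shared by DCM and SPM, spermine began before the injury, and no group with spermine alone was analysed here. Whether a library holds the RNA of a single mouse or of pooled hearts is described in both ways.

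Interferons act through routes that share parts. Type I interferons bind IFNAR1 and IFNAR2, and JAK1 and TYK2 then activate a trimer of STAT2, IRF9 and a STAT partner that binds the interferon-stimulated response element (ISRE). Interferon gamma, made by T and NK cells, binds IFNGR1 and IFNGR2, and JAK1 and JAK2 activate a STAT dimer that binds the gamma-activated site (GAS) and induces IRF1. The Ifit, Oas and Mx families are typical of the type I response, and the guanylate-binding proteins (Gbp) and immunity-related GTPases (Irgm, Iigp) of the gamma response, although many members answer to both. In the heart, resident macrophages and endothelial cells express many of these genes at rest.

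The promoters show how far both routes overlap in sequence. RefSeq promoters (GRCm38.p6, 250 bases before to 50 after a transcript start) were given for 38 of the 52 members. The ISRE was searched as GAAANNGAAA and the GAS as TTCNNNGAA, on both strands. An ISRE stood in a promoter of 22 of the 38 members (57.9%), beside 3.99% of 27025 genes, and a GAS stood in 13 (34.2%), beside 9.55%. Both stood in 9 members (23.7%), beside 0.61%. Counted by gene, 6 of 6 gamma style members held an ISRE in a promoter and 3 of 6 a GAS. Of the type I style members, 5 of 8 held an ISRE and 2 of 8 a GAS. The 7 stretches below are the 125 bases before the start of members that represent each arrangement, with motif letters in capitals. Isg15 (chr4:156200819-156200943, minus strand), Ifit1 (chr19:34640764-34640888, plus strand) and Gbp2 (chr3:142620538-142620662, plus strand) held the ISRE alone. Irf1 (chr11:53769889-53770013, plus strand) held the GAS alone. Oas1a (chr5:120907526-120907650, minus strand), Gbp7 (chr3:142530211-142530335, plus strand) and Irgm2 (chr11:58214852-58214976, plus strand) held both.
Isg15: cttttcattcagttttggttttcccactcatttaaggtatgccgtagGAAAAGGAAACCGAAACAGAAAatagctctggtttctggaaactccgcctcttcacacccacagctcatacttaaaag
Ifit1: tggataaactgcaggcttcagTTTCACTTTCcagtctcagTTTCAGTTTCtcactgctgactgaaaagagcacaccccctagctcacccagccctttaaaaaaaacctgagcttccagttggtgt
Gbp2: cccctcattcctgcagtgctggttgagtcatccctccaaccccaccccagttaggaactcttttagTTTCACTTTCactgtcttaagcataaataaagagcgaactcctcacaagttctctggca
Irf1: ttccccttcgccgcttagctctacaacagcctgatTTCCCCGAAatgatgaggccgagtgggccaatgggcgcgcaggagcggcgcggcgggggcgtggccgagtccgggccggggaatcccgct
Oas1a: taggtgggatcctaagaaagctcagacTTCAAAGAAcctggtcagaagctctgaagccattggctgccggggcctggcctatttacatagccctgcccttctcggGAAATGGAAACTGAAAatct
Gbp7: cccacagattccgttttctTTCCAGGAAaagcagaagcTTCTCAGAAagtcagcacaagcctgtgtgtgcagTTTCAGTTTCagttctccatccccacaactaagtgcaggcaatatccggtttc
Irgm2: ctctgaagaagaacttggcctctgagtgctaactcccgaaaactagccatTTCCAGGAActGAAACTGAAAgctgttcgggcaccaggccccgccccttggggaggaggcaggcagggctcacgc
In Isg15 and Oas1a the longest run of capitals merges overlapping ISRE matches, and in Irgm2 the GAS stood 2 bases before the ISRE. A match is a match of letters and no measurement of binding.

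Total counts were 29901300 to 39718680 per library. The labels and the paper give heart as the tissue, while the extraction protocol speaks of retinas. The 6 cardiomyocyte markers with a row summed to 35405 to 48246 CPM (counts scaled to a common library total, with TMM normalization), and the 7 retina markers with a row to 0.584 to 1.79 CPM, so the defining markers were those of heart. The mitochondrial share was 21.0% to 21.1% in the SPM libraries, above that of DCM (15.5% to 18.9%) and of CK (13.7% to 16.2%). SPM replicate 2 stood apart in another way. Its counts over 11990 genes matched a mixture of 44.9% of SPM replicate 1 and the rest of SPM replicate 3, and the squared deviation from it, in the median gene, was 0.88 of what counting error alone gives, against 2.67 for the next best of 252 combinations of libraries. Of 2656 genes without counts in SPM replicates 1 and 3, 30 had counts in SPM replicate 2. In the median gene it thus added no spread beyond counting error to SPM replicates 1 and 3. How this arose was not tested. Fits (also those without SPM replicate 1 or 3), SDs and overlap counts that include SPM replicate 2 treat it as a separate library. Most fold changes, calls, counts and medians that rest on SPM are given with and without it. Those given only with it include the counts of called marker genes and of called genes from the rest of the pathway. They also include counts at an unadjusted p and the overlap counts of the gamma style members. Nothing in the labels pairs libraries to animals, so p-values measure the spread between these libraries.

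The 46 members together took 0.1498%, 0.1197% and 0.1077% of all counts in the CK libraries, 0.0862%, 0.0729% and 0.0798% in the DCM libraries and 0.0934%, 0.1002% and 0.1065% in the SPM libraries. By this share, all DCM and all SPM libraries lay below all CK libraries, and all SPM libraries lay above all DCM libraries. The total behind the share includes mitochondrial counts, which were highest in SPM. The mean normalized log2 level of the 45 tested members, relative to the CK mean, separated SPM from DCM but not from CK. On that scale SPM replicates 2 (-0.18) and 3 (-0.11) exceeded CK replicate 3 (-0.19). In FPKM, which is per length, the most abundant members over the 9 libraries were Ifi27l2a (58.9), Bst2 (55.6) and Lgals3bp (44.0), followed by Irgm2 (18.1), Irf1 (17.7) and Samhd1 (15.0). Herc6 (0.260), Oas3 (0.294) and Mx1 (0.460) were the lowest of those tested. CK replicate 1 held the highest level of 30 of the 45 members tested and DCM replicate 2 the lowest level of 24.

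**Figure D1:**
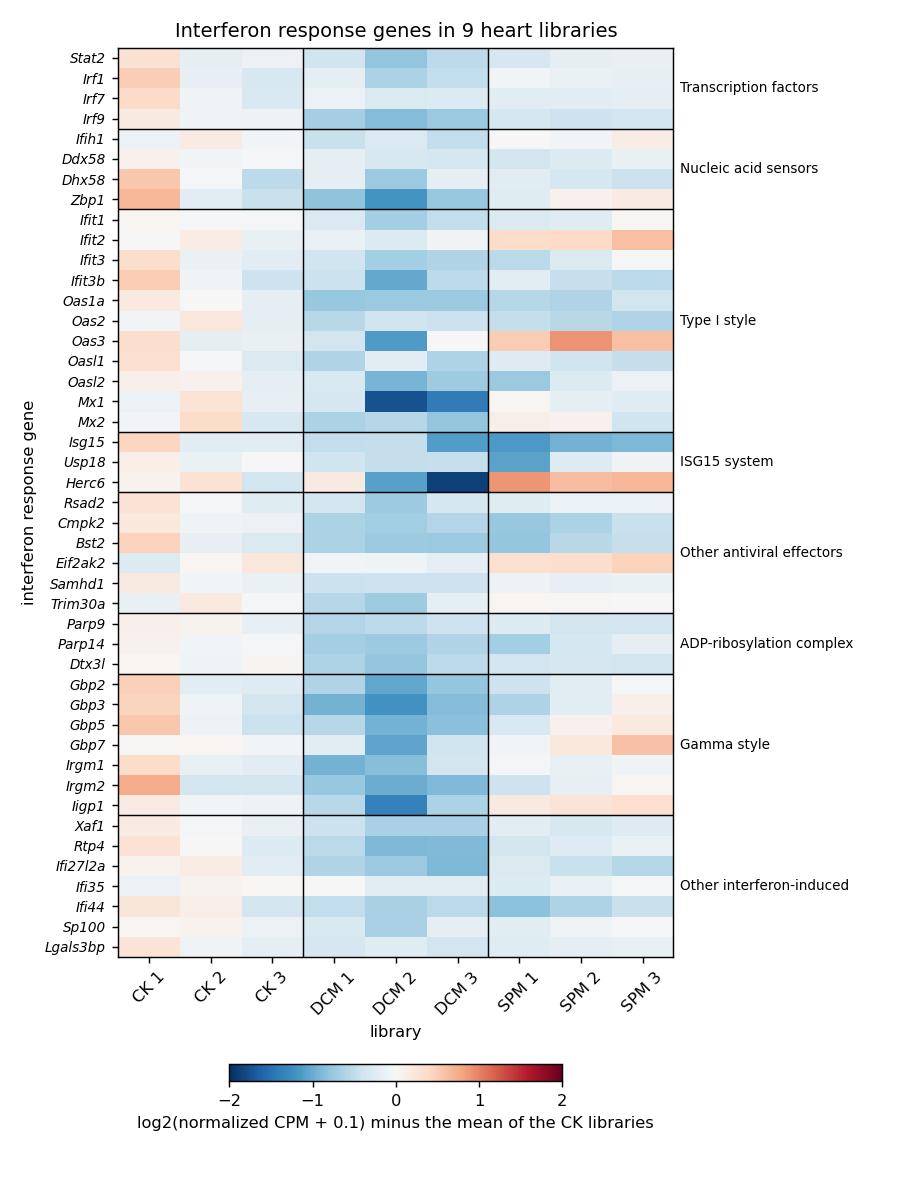
Level of the 45 tested members (rows, by role) in the 9 libraries (columns), as log2(normalized CPM + 0.1) minus the mean of the 3 CK libraries. The DCM columns are blue for most members, CK replicate 1 is the reddest CK column, and the gamma style block is paler in SPM than in DCM.

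DCM compared to CK asks how the diabetic heart differs from the control heart. All 45 members were lower in DCM, with a median log2 fold change of -0.58, beside a median of -0.00 over the 14402 genes tested. A member was called where the edgeR quasi-likelihood test gave an adjusted p (Benjamini-Hochberg over all genes tested) under 0.05 and the fold change was at least 1.5, which is 0.585 on the log2 scale. By this rule 17 of 45 members fell, where 2.31% of all genes tested did. By adjusted p alone 27 of 45 fell, beside 5.11% of all genes. All DCM libraries lay below all CK libraries for 36 of 45 members, beside 14.8% of all genes. No member was called higher by edgeR, beside 2.03% of all genes, nor by DESeq2 or limma. At an unadjusted p under 0.05, too, no member was higher, and the share of all genes at that limit is not given here. Without CK replicate 1 the call count was 8 of 45 (1.92% of all genes), and without DCM replicate 2 it was 9 of 45 (1.42%), each with all 45 members still lower. In bulk RNA, fewer cells of a type and less RNA per cell cannot be told apart. Markers of macrophages summed to 804 to 1061 CPM in CK and 669 to 788 CPM in DCM, with 9 of 10 lower and 2 called. Those of T and NK cells summed to 7.88 to 13.8 CPM in CK and 3.32 to 6.79 in DCM, and those of fibroblasts to 2006 to 2104 and 1357 to 1451. Endothelial markers summed to 2240 to 2575 in CK and 2173 to 2373 in DCM. B cell markers summed to 6.52 to 21.5 in CK and 2.44 to 10.9 in DCM. The part of these cells in the result was not tested.

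SPM compared to DCM asks what accompanied spermine in the diabetic heart. Of 45 members, 41 were higher and 4 lower in SPM, with a median of 0.31 beside 0.01 over the 14493 genes tested. By both limits 9 of 45 rose, where 2.70% of all genes did, and by adjusted p alone 19 of 45, beside 8.87%. Without SPM replicate 2 adjusted p alone passed 3 of 45, beside 0.357%, with 40 members higher and 5 lower. The libraries did not overlap, with SPM higher, for 27 of 45 members, beside 19.7% of all genes, and for 27 of 45, beside 20.7%, without SPM replicate 2. No member was called lower by edgeR, beside 0.890% of all genes, nor by DESeq2 or limma. At an unadjusted p under 0.05, too, no member was lower, and the share of all genes at that limit is not given here. Without SPM replicate 2 the count called higher by both limits was 3 of 45 (0.283% of all genes), and without DCM replicate 2 it was 1 of 45 (0.327%). With an offset for each library's trend on GC content it was 4 of 45 (0.608%). The median was 0.31, 0.24 and 0.25 in these fits. Macrophage markers summed to 793 to 1350 CPM in SPM, with 10 of 10 higher than in DCM and 6 called, and neutrophil markers to 29.9 to 59.1 CPM, beside 11.9 to 27.7 in DCM. T and NK cell markers summed to 6.90 to 8.69 CPM, all above DCM, and their part in the result, like that of the other cells, was not tested.

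SPM compared to CK shares its libraries with both other comparisons. Of 45 members, 37 were lower and 8 higher in SPM, with a median of -0.26 beside 0.00 over the 14574 genes tested. By both limits 4 of 45 fell (4.12% of all genes) and none rose (5.08% of all genes), and DESeq2 and limma also called none higher. At an unadjusted p under 0.05, 5 were higher, and the share of all genes at that limit is not given here. By adjusted p alone 12 of 45 were lower, beside 14.3% of all genes. The libraries did not overlap, with SPM lower, for 13 of 45, beside 23.1%. These counts are read against the shares of all genes beside them, and the count of members without overlap lay near its background. Without SPM replicate 2 the count called lower by both limits was 2 of 45 (2.28% of all genes). It was also 2 without CK replicate 1 (3.07%) and without SPM replicate 1 (3.15%). Without SPM replicate 2 the median was -0.25, with 38 members lower and 7 higher, 4 of 45 lower by adjusted p alone (5.10% of all genes) and 13 of 45 without overlap (23.7%). Neutrophil markers summed to 29.9 to 59.1 CPM in SPM and 5.48 to 25.6 in CK, and B cell markers to 3.26 to 6.80 and 6.52 to 21.5, with 2 of 5 called lower. Endothelial markers summed to 2010 to 2144 in SPM and 2240 to 2575 in CK, fibroblast markers to 1619 to 1684 and 2006 to 2104, and cardiomyocyte markers to 35405 to 40825 and 42256 to 47556. Myh6 made the largest part of the cardiomyocyte sum, at 13964 to 20253 in SPM and 22682 to 25845 in CK. With all SPM libraries, the log2 fold change was -0.47 for Myh6, -0.26 for Ryr2, -0.20 for Tnni3 and -0.01 for Myl2. It was 0.06 for Mybpc3 and 0.21 for Tnnt2. Macrophage markers overlapped, at 793 to 1350 and 804 to 1061. The part of these cells was not tested.

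The factors that carry the signal came first. Values in this and the following paragraphs are normalized CPM by library, in the order of replicates 1, 2 and 3. Fold changes are log2 from edgeR, with an SE derived from its test. This SE is the absolute log2 fold change over the square root of the quasi-likelihood F statistic. Irf9, the DNA-binding part of the type I trimer, stood at 52.0, 43.9 and 42.9 in CK, 28.6, 25.1 and 27.4 in DCM and 36.1, 34.7 and 35.5 in SPM. The groups did not overlap in any pair, with DCM lowest and CK highest. Irf9 fell in DCM compared to CK (-0.77 ± 0.09, adjusted p = 0.000308) and kept its call in all 14 alternatives that were run on single members. It was higher in SPM than in DCM (0.39 ± 0.07, adjusted p = 0.0131, and 0.40, adjusted p = 0.0661, without SPM replicate 2) and lower in SPM than in CK (-0.39 ± 0.08, adjusted p = 0.0100, and -0.37, adjusted p = 0.0575, without SPM replicate 2), both under the fold limit. Stat2, its partner, stood at 47.9, 34.0 and 35.5 in CK, 29.3, 22.3 and 27.0 in DCM and 30.8, 33.9 and 34.8 in SPM. Stat2 lay below all CK libraries in DCM (-0.58 ± 0.13, adjusted p = 0.0169), just under the fold limit, and passed both limits without CK replicate 2, without CK replicate 3, without DCM replicate 1 and with limma. SPM compared to DCM gave 0.34 ± 0.10, adjusted p = 0.0453, and 0.32, adjusted p = 0.159, without SPM replicate 2 for Stat2.

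Irf1, which interferon gamma induces, and Irf7, which amplifies the type I response, differed less. Irf1 stood at 58.8, 37.4 and 33.6 in CK, 36.8, 26.9 and 29.9 in DCM and 40.3, 38.1 and 37.3 in SPM. Its DCM and CK libraries overlapped (-0.47 ± 0.18, adjusted p = 0.127) and its SPM libraries lay above all DCM libraries (0.30 ± 0.11, adjusted p = 0.0723, and 0.31, adjusted p = 0.179, without SPM replicate 2). Irf7 stood at 61.6, 44.5 and 38.3 in CK, 43.7, 38.6 and 39.0 in DCM and 40.4, 40.6 and 41.6 in SPM. CK replicate 1 lay above the other 8 libraries, and Irf7 gave -0.25 ± 0.14, adjusted p = 0.299 in DCM compared to CK and 0.01 ± 0.07, adjusted p = 0.910, and 0.02, adjusted p = 0.931, without SPM replicate 2 in SPM compared to DCM. Neither gene was called, although Irf1 passed both limits in DCM compared to CK without CK replicate 3.

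Of the 4 sensors of foreign nucleic acid, Zbp1, which binds Z-form nucleic acid and can trigger necroptosis, was called in both directions. Zbp1 stood at 8.32, 4.52 and 3.80 in CK, 2.94, 2.23 and 3.05 in DCM and 4.40, 5.53 and 5.86 in SPM. DCM lay below both other groups, while CK and SPM overlapped. Zbp1 fell in DCM compared to CK (-1.01 ± 0.28, adjusted p = 0.0391), a call that was lost without CK replicate 1, CK replicate 2, DCM replicate 1, DCM replicate 2 or DCM replicate 3 (-0.60 to -1.14) and with limma (-0.95). It rose in SPM compared to DCM (0.94 ± 0.19, adjusted p = 0.0156, and 0.90, adjusted p = 0.0825, without SPM replicate 2), and this call was lost without DCM replicate 2 or SPM replicate 2 (0.81 to 0.90). Ifih1, the sensor of long double-stranded RNA, passed the adjusted p alone, lower in DCM (-0.42 ± 0.12, adjusted p = 0.0494) and higher in SPM than in DCM (0.44 ± 0.10, adjusted p = 0.0235, and 0.48, adjusted p = 0.0839, without SPM replicate 2). Ddx58, which encodes RIG-I, gave -0.28 ± 0.09, adjusted p = 0.0631 in DCM compared to CK and Dhx58 gave -0.42 ± 0.27, adjusted p = 0.384.

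Among the 11 type I style members, the median log2 fold change was -0.58 in DCM compared to CK, 0.28 in SPM compared to DCM and -0.31 in SPM compared to CK. In the first, 2 were called lower (2.31% of all genes), and in the second 2 were called higher (2.70%). None was called in the third, beside 4.12% of all genes lower and 5.08% higher. Without SPM replicate 2 the last 2 medians were 0.29 and -0.29. In the first comparison 1 was called without DCM replicate 2 (1.42% of all genes), and in the second 1 was called without SPM replicate 2 (0.283%). None was called there without DCM replicate 2 (0.327%) or with the GC offset (0.608%), where edgeR gave 3 and 5 at an unadjusted p under 0.05. The share of all genes at that unadjusted limit is not given here. Oas1a (ENSMUSG00000052776), one of the synthases of the 2-5A messenger that activates RNase L, stood at 11.6, 10.0 and 8.76 in CK, 5.93, 5.99 and 5.98 in DCM and 6.74, 6.63 and 7.81 in SPM. Its DCM libraries differed by less than those of any other group and lay below all CK and all SPM libraries. Oas1a fell in DCM compared to CK (-0.76 ± 0.14, adjusted p = 0.00520), in all 14 alternatives too. SPM compared to DCM gave 0.24 ± 0.13, adjusted p = 0.205, and 0.29, adjusted p = 0.352, without SPM replicate 2, and SPM stayed below CK with -0.53 ± 0.13, adjusted p = 0.0213, and -0.48, adjusted p = 0.10, without SPM replicate 2, under the fold limit.

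Oasl2, an OAS-like gene, stood at 32.1, 31.6 and 26.2 in CK, 24.2, 15.6 and 18.1 in DCM and 17.8, 24.6 and 27.5 in SPM. All DCM libraries lay below all CK libraries and the SPM libraries spanned both. Oasl2 fell in DCM (-0.63 ± 0.14, adjusted p = 0.0148), a call lost without CK replicate 1, CK replicate 2, DCM replicate 2 or DCM replicate 3 (-0.50 to -0.59). Ifit3, the most abundant type I style member in FPKM (12.2) and a binding partner of IFIT1 on foreign RNA, stood at 32.2, 22.9 and 21.7 in CK, 19.0, 15.7 and 16.6 in DCM and 17.3, 20.5 and 24.5 in SPM. DCM lay below all CK libraries (-0.58 ± 0.14, adjusted p = 0.0215), just under the fold limit, which it passed without CK replicate 2, CK replicate 3 or DCM replicate 1 and with limma, and SPM overlapped both groups (0.28 ± 0.13, adjusted p = 0.151, and 0.29, adjusted p = 0.288, without SPM replicate 2 in SPM compared to DCM). Ifit3b, its near-identical copy, may share reads with it and gave -0.69 ± 0.23, adjusted p = 0.0830 in DCM.

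Ifit2 and Oas3 followed another course. Ifit2, which binds AU-rich RNA, stood at 17.5, 19.5 and 15.8 in CK, 16.0, 14.3 and 16.6 in DCM and 22.7, 23.0 and 26.5 in SPM. CK and DCM overlapped (-0.17 ± 0.11, adjusted p = 0.383) and all SPM libraries lay above all others. Ifit2 rose in SPM compared to DCM (0.62 ± 0.09, adjusted p = 0.00956, and 0.65, adjusted p = 0.0439, without SPM replicate 2), a call lost without DCM replicate 2 or SPM replicate 3 (0.54 to 0.56) and with the GC offset (0.35), and SPM compared to CK gave 0.45 ± 0.10, adjusted p = 0.0147, and 0.48, adjusted p = 0.0468, without SPM replicate 2, under the fold limit. Oas3 stood at 1.59, 1.06 and 1.10 in CK, 0.930, 0.508 and 1.23 in DCM and 1.79, 2.38 and 1.92 in SPM. All of its SPM libraries lay above all others, at low levels, and Oas3 rose in SPM compared to DCM (1.17 ± 0.33, adjusted p = 0.0399, and 1.05, adjusted p = 0.18, without SPM replicate 2). That call was lost without DCM replicate 1, DCM replicate 2, SPM replicate 2 or SPM replicate 3 (0.91 to 1.21), with the GC offset (1.27) and with limma. Ifit1 gave -0.48 ± 0.13, adjusted p = 0.0413 and Oas2 -0.47 ± 0.12, adjusted p = 0.0239 in DCM compared to CK, and the GTPases Mx1 and Mx2, at or under 4.30 CPM in every library, gave -1.10 ± 0.41, adjusted p = 0.115 and -0.72 ± 0.25, adjusted p = 0.0929. Mx2 is annotated as a polymorphic pseudogene in GENCODE M21.

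**Figure D2:**
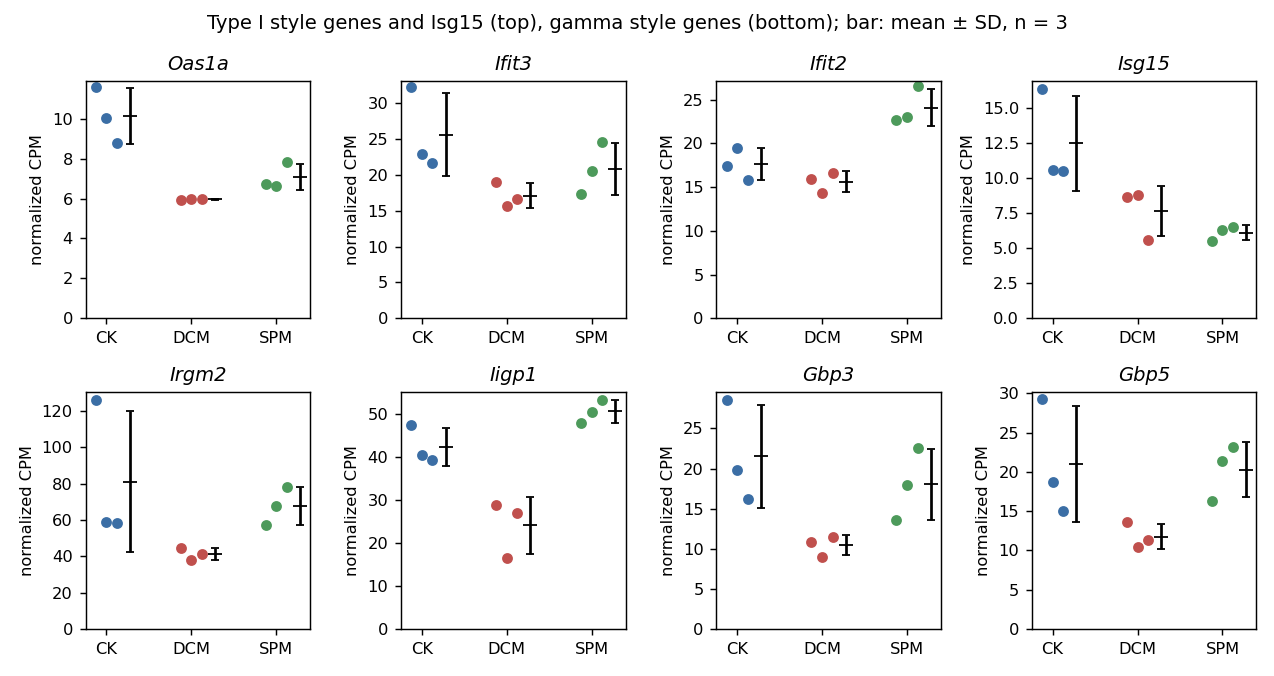
Normalized CPM (vertical axes, from 0) of 8 members in the CK, DCM and SPM libraries; points are libraries, and the bar is the mean ± SD (n = 3). Oas1a and Isg15 stay below CK in SPM, Ifit2 exceeds CK in SPM, and Irgm2, Iigp1, Gbp3 and Gbp5 lie above all DCM libraries in SPM.

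The ISG15 system tags proteins with the ubiquitin-like ISG15. Isg15 (ENSMUSG00000035692) stood at 16.4, 10.5 and 10.5 in CK, 8.62, 8.77 and 5.57 in DCM and 5.48, 6.31 and 6.48 in SPM. Every DCM and every SPM library lay below every CK library, and the SPM and DCM libraries overlapped. Isg15 fell in DCM compared to CK (-0.70 ± 0.21, adjusted p = 0.0484), a call lost without CK replicate 1, CK replicate 2, DCM replicate 1, DCM replicate 2 or DCM replicate 3 (-0.46 to -0.81). It also fell in SPM compared to CK (-1.04 ± 0.18, adjusted p = 0.00507, and -1.06, adjusted p = 0.0221, without SPM replicate 2), and this call was kept in all 14 alternatives, with log2 fold changes of -1.15 to -0.80. SPM compared to DCM gave -0.33 ± 0.18, adjusted p = 0.218, and -0.36, adjusted p = 0.359, without SPM replicate 2. Usp18, which removes ISG15 and dampens the receptor, gave -0.46 ± 0.20, adjusted p = 0.177 in DCM compared to CK. Herc6, the mouse ISG15 ligase, lay at 0.234 to 2.16 CPM and gave 1.49 ± 0.48, adjusted p = 0.0586, and 1.55, adjusted p = 0.142, without SPM replicate 2 in SPM compared to DCM, and it passed both limits with DESeq2, with the replicate block, with no low-count filter and without DCM replicate 1. A non-coding gene on the same strand overlaps it.

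Other antiviral effectors were mixed. Bst2, or tetherin, which holds budding virus to the cell, stood at 78.2, 50.7 and 46.3 in CK, 36.7, 34.4 and 33.9 in DCM and 33.2, 38.5 and 41.1 in SPM. CK lay above all other libraries and DCM and SPM overlapped. Bst2 fell in DCM (-0.74 ± 0.15, adjusted p = 0.0100) and in SPM compared to CK (-0.64 ± 0.18, adjusted p = 0.0312, and -0.65, adjusted p = 0.0828, without SPM replicate 2). The first call was lost without CK replicate 1 (-0.47), the second without CK replicate 1, SPM replicate 1 or SPM replicate 2 (-0.38 to -0.65) and with the GC offset (-0.51) and the replicate block.

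Cmpk2, a mitochondrial nucleotide kinase encoded next to Rsad2, stood at 29.4, 23.8 and 23.3 in CK, 16.2, 15.7 and 16.8 in DCM and 14.9, 16.3 and 18.5 in SPM. CK again lay above all other libraries. Cmpk2 fell in DCM (-0.65 ± 0.11, adjusted p = 0.00218), a call lost without CK replicate 1 (-0.54), and in SPM compared to CK (-0.63 ± 0.12, adjusted p = 0.00621, and -0.61, adjusted p = 0.0323, without SPM replicate 2), a call lost without CK replicate 1 or SPM replicate 1 (-0.52 to -0.55). Its values in SPM and DCM overlapped (0.03 ± 0.10, adjusted p = 0.862, and 0.04, adjusted p = 0.888, without SPM replicate 2). Samhd1, which depletes nucleotides, and Rsad2, or viperin, passed the adjusted p alone in DCM compared to CK (-0.42 ± 0.09, adjusted p = 0.00872, and -0.49 ± 0.13, adjusted p = 0.0362). Eif2ak2, the kinase PKR, had the smallest difference of all members in DCM compared to CK (-0.12 ± 0.14, adjusted p = 0.661) and gave 0.49 ± 0.10, adjusted p = 0.0156, and 0.50, adjusted p = 0.0798, without SPM replicate 2 in SPM compared to DCM.

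The 3 members of the ADP-ribosylation complex were all lower in DCM. Parp14, an ADP-ribosyltransferase, stood at 64.0, 58.0 and 59.2 in CK, 37.8, 36.5 and 39.9 in DCM and 37.7, 47.2 and 52.7 in SPM. All DCM libraries lay below all CK libraries, and SPM replicate 1 alone of the SPM libraries lay among them. Parp14 fell in DCM (-0.66 ± 0.08, adjusted p = 0.000190), in all 14 alternatives too, and SPM compared to CK gave -0.40 ± 0.11, adjusted p = 0.0308, and -0.42, adjusted p = 0.0859, without SPM replicate 2.

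Dtx3l, the ubiquitin ligase that works with Parp9, stood at 34.5, 31.7 and 35.1 in CK, 21.9, 19.6 and 23.5 in DCM and 25.9, 26.7 and 26.2 in SPM. Its 3 groups did not overlap, with DCM lowest. Dtx3l fell in DCM (-0.64 ± 0.09, adjusted p = 0.000965), a call lost without DCM replicate 2 (-0.57), and SPM compared to DCM gave 0.27 ± 0.08, adjusted p = 0.0476, and 0.26, adjusted p = 0.196, without SPM replicate 2. Parp9 overlaps Dtx3l over 682 bases on the opposite strand, the strand setting of the counting is not given in the sources used here, and Parp9 gave -0.51 ± 0.11, adjusted p = 0.0135 in DCM.

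The 7 gamma style members tested were all lower in DCM than in CK and all higher in SPM than in DCM. Their median log2 fold change was -0.83 in DCM compared to CK, 0.78 in SPM compared to DCM and -0.11 in SPM compared to CK. In the first, 6 were called lower (2.31% of all genes), and in the second 6 were called higher (2.70%). None was called in the third, beside 4.12% of all genes lower and 5.08% higher. In both of the first comparisons the libraries of the groups overlapped for none of the 7. Of all genes, 14.8% were without overlap and lower in DCM than in CK, and 19.7% without overlap and higher in SPM than in DCM. In DCM compared to CK, Gbp3 and Iigp1 kept their calls without CK replicate 1 (median -0.52) and also without DCM replicate 2 (median -0.73). In these fits 1.92% and 1.42% of all genes were called lower. In SPM compared to DCM the median was 0.74 with 2 of 7 called without SPM replicate 2 (0.283% of all genes). It was 0.65 with 1 of 7 called without DCM replicate 2 (0.327%) and 0.59 with 3 of 7 called with the GC offset (0.608%). In SPM compared to CK 1 gamma style member, Iigp1, passed an unadjusted p under 0.05 by edgeR, a limit for which the share of all genes is not given here. DESeq2 and limma called none in that comparison.

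Irgm2 (ENSMUSG00000069874), an immunity-related GTPase that guards host membranes, stood at 126, 58.8 and 58.5 in CK, 44.8, 38.0 and 41.1 in DCM and 57.0, 67.7 and 78.0 in SPM. CK replicate 1 was more than any other library, and DCM lay below all others. Irgm2 fell in DCM (-0.97 ± 0.23, adjusted p = 0.0197), a call lost without CK replicate 1, DCM replicate 2 or DCM replicate 3 (-0.50 to -0.96) and with DESeq2. It rose in SPM compared to DCM (0.71 ± 0.11, adjusted p = 0.00956, and 0.71, adjusted p = 0.0415, without SPM replicate 2), a call lost without DCM replicate 2 (0.65) and in the fit of all 9 libraries. Igtp overlaps Irgm2 over 7974 bases on the same strand and received at most 2 counts in a library, so how reads were split between both genes is uncertain.

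Iigp1 (ENSMUSG00000054072), which attacks the vacuole of intracellular parasites, stood at 47.4, 40.5 and 39.3 in CK, 28.9, 16.6 and 27.1 in DCM and 48.0, 50.5 and 53.4 in SPM. DCM lay below all other libraries and every SPM library lay above every CK library. Iigp1 fell in DCM (-0.80 ± 0.16, adjusted p = 0.00828) and rose in SPM compared to DCM (1.06 ± 0.16, adjusted p = 0.00956, and 1.07, adjusted p = 0.0303, without SPM replicate 2), both in all 14 alternatives. Against CK, SPM gave 0.25 ± 0.08, adjusted p = 0.0539, and 0.26, adjusted p = 0.159, without SPM replicate 2. Irgm1, a regulator of the other GTPases, stood at 20.9, 14.7 and 13.9 in CK, 8.39, 8.97 and 12.6 in DCM and 15.9, 14.7 and 15.5 in SPM. It fell in DCM (-0.72 ± 0.18, adjusted p = 0.0243), a call lost without CK replicate 1, DCM replicate 1 or DCM replicate 2 (-0.52 to -0.65), and rose in SPM compared to DCM (0.62 ± 0.14, adjusted p = 0.0218, and 0.65, adjusted p = 0.0700, without SPM replicate 2), a call lost without DCM replicate 1, DCM replicate 2 or SPM replicate 2 (0.50 to 0.65) and with the GC offset (0.48). Its SPM libraries lay within the range of CK.

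The guanylate-binding proteins coat pathogens and activate inflammasomes. Gbp3 stood at 28.6, 19.8 and 16.2 in CK, 10.8, 9.01 and 11.4 in DCM and 13.6, 18.0 and 22.5 in SPM. It fell in DCM (-1.04 ± 0.18, adjusted p = 0.00325), in all 14 alternatives too, and rose in SPM compared to DCM (0.79 ± 0.17, adjusted p = 0.0169, and 0.79, adjusted p = 0.0600, without SPM replicate 2), a call lost without DCM replicate 1, DCM replicate 2 or SPM replicate 2 (0.70 to 0.81) and with the GC offset (0.66). Gbp5 stood at 29.2, 18.8 and 15.0 in CK, 13.5, 10.4 and 11.3 in DCM and 16.3, 21.4 and 23.1 in SPM. Gbp5 fell in DCM (-0.83 ± 0.20, adjusted p = 0.0200), a call lost without CK replicate 1, DCM replicate 2 or DCM replicate 3 (-0.52 to -0.80), and rose in SPM (0.78 ± 0.14, adjusted p = 0.0120, and 0.74, adjusted p = 0.0564, without SPM replicate 2), a call lost without DCM replicate 2 or SPM replicate 2 (0.70 to 0.74). For both genes DCM lay below all other libraries and the SPM libraries overlapped CK.

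Gbp2 stood at 53.2, 33.2 and 32.0 in CK, 25.2, 18.7 and 22.4 in DCM and 28.7, 33.1 and 37.7 in SPM. It fell in DCM (-0.83 ± 0.17, adjusted p = 0.00955), a call lost without CK replicate 1 or DCM replicate 2 (-0.56 to -0.73), and in SPM compared to DCM it lay just under the fold limit (0.58 ± 0.12, adjusted p = 0.0168, and 0.58, adjusted p = 0.0629, without SPM replicate 2), which it passed without DCM replicate 1 and without SPM replicate 1. Gbp7 stood at 13.1, 13.3 and 12.4 in CK, 11.1, 6.20 and 9.82 in DCM and 12.5, 15.0 and 19.4 in SPM. Gbp7 passed neither limit in DCM (-0.51 ± 0.18, adjusted p = 0.0926), except without DCM replicate 1, and rose in SPM compared to DCM (0.78 ± 0.21, adjusted p = 0.0329, and 0.81, adjusted p = 0.0829, without SPM replicate 2), a call lost without DCM replicate 1, DCM replicate 2, DCM replicate 3, SPM replicate 2 or SPM replicate 3 (0.57 to 0.95), with the GC offset (0.51) and with limma. DCM lay below all other libraries for both genes, and the order of the SPM and CK libraries was mixed.

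**Figure D3:**
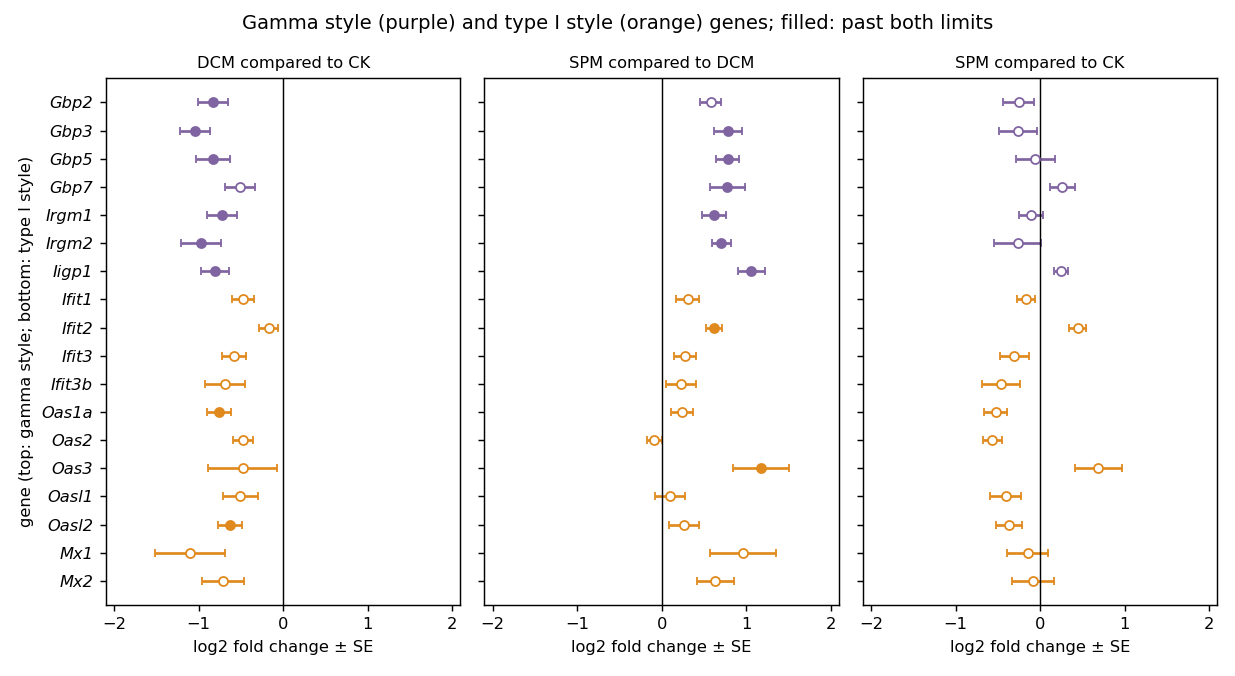
Log2 fold change ± SE (horizontal axes) of the 7 gamma style and 11 type I style members in the 3 comparisons, filled where both limits were passed. Gamma style genes lie left of 0 in DCM compared to CK and right of 0 in SPM compared to DCM, 6 of 7 filled in each, and type I style genes reach less far in SPM compared to DCM, except Oas3, Mx1, Mx2 and Ifit2.

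The contrast between both families was set out by library. Relative to the mean of CK on the log2 scale, the mean type I style level was 0.15, 0.06 and -0.21 in CK, -0.44, -0.76 and -0.58 in DCM and -0.19, -0.15 and -0.14 in SPM. The mean gamma style level was 0.39, -0.13 and -0.26 in CK, -0.66, -1.06 and -0.68 in DCM and -0.24, -0.03 and 0.17 in SPM. The gamma style minus type I style difference was 0.24, -0.19 and -0.05 in CK, -0.22, -0.30 and -0.10 in DCM and -0.05, 0.12 and 0.31 in SPM. All SPM libraries thus lay above all DCM libraries in this difference, and the CK libraries overlapped both.

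Between the lists, the type I style median minus the gamma style median was 0.25 in DCM compared to CK, -0.50 in SPM compared to DCM and -0.20 in SPM compared to CK. Without CK replicate 1 the first was 0.065, and without SPM replicate 2 the second was -0.46 and the third -0.20. With the GC offset the second was -0.34, and the median GC content was 45.9% in the gamma style genes, 49.4% in the type I style genes and 49.8% over all genes tested. The gamma style median in SPM compared to CK was 0.19 without CK replicate 1 and -0.09 without SPM replicate 2. T and NK cell markers summed to 8.62, 8.69 and 6.90 CPM in SPM replicates 1, 2 and 3 and macrophage markers to 1350, 1017 and 793 CPM. Both sums, and that of neutrophil markers (59.1, 43.8 and 29.9), were lowest in SPM replicate 3. Highest there were endothelial (2010, 2077 and 2144), fibroblast (1619, 1649 and 1684) and B cell markers (3.26, 5.47 and 6.80). So were cardiomyocyte (35405, 38304 and 40825) and plasmacytoid dendritic cell markers (0.585, 0.772 and 1.07). The cardiomyocyte markers were split. Myh6 (13964, 17408 and 20253), Ryr2 (1009, 1148 and 1268) and Mybpc3 (4190, 4381 and 4540) were highest in SPM replicate 3. Tnnt2 (6116, 5851 and 5555), Myl2 (6560, 6063 and 5796) and Tnni3 (3567, 3453 and 3413) were lowest there. The counts of SPM replicate 2 matched a mixture of SPM replicates 1 and 3. The part of these cells was not tested, and this contrast has no test.

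**Figure D4:**
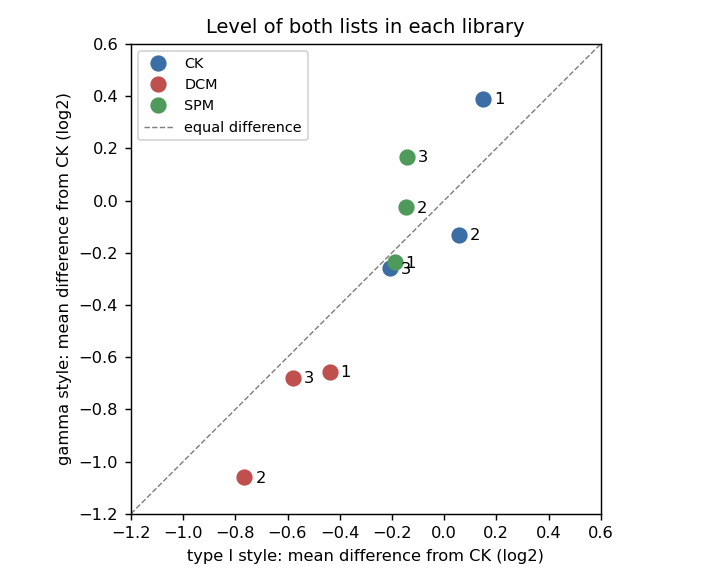
Mean level of the 7 gamma style members (vertical) against that of the 11 type I style members (horizontal) in each library, both as log2 difference from the CK mean, with replicate numbers and a line of equal difference. The DCM libraries lie lowest on both axes and below the line, SPM replicates 2 and 3 lie above it, and SPM replicate 1 lies just below it.

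Members grouped by promoter motif had overlapping fold changes. In DCM compared to CK the median was -0.75 for the 6 tested members with both motifs, -0.58 for the 13 with the ISRE alone, -0.30 for the 4 with the GAS alone and -0.59 for the 11 with neither. In SPM compared to DCM these medians were 0.60, 0.34, 0.29 and 0.26, and 0.61, 0.35, 0.31 and 0.23 without SPM replicate 2. The ranges of the 4 classes overlapped in both comparisons.

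Other interferon-induced genes made the last group. Ifi27l2a, a mitochondrial protein, stood at 36.2, 38.3 and 29.9 in CK, 22.7, 20.7 and 18.6 in DCM and 28.4, 25.4 and 23.3 in SPM. Its 3 groups did not overlap, with DCM lowest. It fell in DCM (-0.75 ± 0.11, adjusted p = 0.00105), in all 14 alternatives too, and lay under the fold limit in SPM compared to CK (-0.44 ± 0.11, adjusted p = 0.0188, and -0.43, adjusted p = 0.0752, without SPM replicate 2).

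Rtp4, a chaperone of membrane receptors, stood at 21.7, 17.7 and 14.6 in CK, 12.2, 9.51 and 9.64 in DCM and 13.8, 14.9 and 16.3 in SPM. DCM lay below all other libraries and SPM within or below CK. Rtp4 fell in DCM (-0.78 ± 0.15, adjusted p = 0.00653), in all 14 alternatives too, and SPM compared to DCM gave 0.51 ± 0.12, adjusted p = 0.0226, and 0.52, adjusted p = 0.0871, without SPM replicate 2, under the fold limit. Ifi44 stood at 7.40, 6.81 and 4.80 in CK, 4.42, 3.93 and 4.28 in DCM and 3.48, 4.02 and 4.56 in SPM. It fell in SPM compared to CK (-0.66 ± 0.20, adjusted p = 0.0368, and -0.66, adjusted p = 0.12, without SPM replicate 2), a call lost without CK replicate 1, CK replicate 2, SPM replicate 1 or SPM replicate 2 (-0.55 to -0.66) and with the replicate block, while DCM compared to CK gave -0.59 ± 0.19, adjusted p = 0.0703. Xaf1, Sp100, Lgals3bp and Ifi35 gave log2 fold changes of -0.58, -0.37, -0.33 and -0.15 in DCM compared to CK, and none of them was called.

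The rest of the pathway was read from 45 further genes, of which 34 had a row and 29 were tested. In DCM compared to CK 3 of 29 fell (2.31% of all genes), and in SPM compared to DCM 4 of 29 rose (2.70% of all genes). In SPM compared to CK 2 of 29 rose (5.08% of all genes) and 1 of 29 fell (4.12%), which lay near the background. Of 9 ligands listed, Ifnb1 and Ifng had a row, with 1 count each over all 9 libraries, and neither was tested. Ifngr2, the signalling chain of the gamma receptor, stood at 205, 201 and 193 in CK, 139, 126 and 145 in DCM and 136, 149 and 150.0 in SPM. CK lay above all other libraries, and Ifngr2 gave -0.55 ± 0.07, adjusted p = 0.000548 in DCM and -0.47 ± 0.06, adjusted p = 0.00162, and -0.49, adjusted p = 0.0123, without SPM replicate 2 in SPM compared to CK, both under the fold limit. Jak1, the kinase of both routes, gave -0.35 ± 0.07, adjusted p = 0.00841 and -0.37 ± 0.07, adjusted p = 0.00506, and -0.36, adjusted p = 0.0368, without SPM replicate 2, also under it. Ifnar1 gave -0.18 ± 0.08, adjusted p = 0.202 and Ifnar2 -0.01 ± 0.10, adjusted p = 0.984 in DCM compared to CK, and Socs1, a feedback inhibitor, gave -0.84 ± 0.33, adjusted p = 0.141.

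Of the other genes that interferon gamma induces, Cxcl9, the chemokine that draws T cells, stood at 17.3, 11.6 and 8.53 in CK, 3.34, 3.52 and 4.57 in DCM and 5.02, 4.89 and 5.57 in SPM. CK lay above all other libraries. Cxcl9 fell in DCM (-1.71 ± 0.23, adjusted p = 0.000655) and in SPM compared to CK (-1.28 ± 0.23, adjusted p = 0.00573, and -1.24, adjusted p = 0.0271, without SPM replicate 2), both also in all 14 alternatives, and SPM compared to DCM gave 0.44 ± 0.17, adjusted p = 0.103, and 0.47, adjusted p = 0.24, without SPM replicate 2. Nlrc5, the activator of MHC class I genes, fell in DCM (-0.65 ± 0.18, adjusted p = 0.0425), a call lost without CK replicate 1, DCM replicate 1, DCM replicate 2 or DCM replicate 3 (-0.38 to -0.72) and with limma, and rose in SPM compared to DCM (0.68 ± 0.13, adjusted p = 0.0130, and 0.67, adjusted p = 0.0566, without SPM replicate 2). Ciita, its class II counterpart, fell in DCM (-1.70 ± 0.49, adjusted p = 0.0466) at levels of 0.203 to 1.59 CPM, a call lost without CK replicate 1, CK replicate 2, CK replicate 3, DCM replicate 2 or DCM replicate 3 (-1.42 to -1.84) and with limma. Cd274, which encodes PD-L1, rose in SPM compared to DCM (0.88 ± 0.17, adjusted p = 0.0147, and 0.89, adjusted p = 0.0520, without SPM replicate 2). Tlr7, an endosomal sensor of RNA, and Ikbke, an IRF kinase, rose in SPM compared to DCM (1.17 ± 0.20, adjusted p = 0.0111, and 1.17, adjusted p = 0.0520, without SPM replicate 2, and 1.05 ± 0.30, adjusted p = 0.0417, and 1.02, adjusted p = 0.126, without SPM replicate 2). Each of these 4 calls in SPM compared to DCM was lost without DCM replicate 2, with log2 fold changes of 0.56 to 1.02, and without SPM replicate 2, with 0.67 to 1.17. Ikbke also lost its call without DCM replicate 1, DCM replicate 3 or SPM replicate 1 and with limma, and with the GC offset, as did Cd274. Mavs, the adaptor of the RNA sensors, was lower in SPM than in DCM, under the fold limit (-0.43 ± 0.06, adjusted p = 0.00939, and -0.41, adjusted p = 0.0566, without SPM replicate 2).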

How the data were processed

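RNA-seq of 9 heart libraries was analysed, 3 each of CK, DCM and SPM, grouped by their deposited labels. The members and gene lists were chosen with earlier results of these data known. The authors deposited whole-number counts per gene, made from reads filtered with fastp, and the submitters' processing notes name Bowtie 0.12.2 and the builds mm8 and mm9, without roles. No source used here gives the counting tool, the annotation or the strand setting. The deposited FPKM values are the count over a length fixed for each gene and over the library's total (relative deviation at most 8.58e-13).

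Each pair of groups was compared with edgeR 4.0.16 (filterByExpr, TMM, quasi-likelihood test, Benjamini-Hochberg adjustment over all genes tested) on the 6 libraries of both groups, in R 4.3.3. DEGs were called at an adjusted p under 0.05 and a fold change of at least 1.5. Levels are TMM-normalized CPM over the 9 libraries, and list levels are means of log2(CPM + 0.1). Gene names came from GENCODE M21, which names 22820 of 22851 identifiers. Values in every library are given for the transcription factors, the members called in any comparison and the 2 most abundant members (FPKM) of the type I style and gamma style lists, and other members are given by fold changes, counts or ranges. Alternatives were DESeq2 1.42.0, limma 3.58.1 on log2(FPKM + 0.1), RLE normalization, other low-count filters, all 9 libraries in 1 fit, a replicate block, an offset for each library's GC trend, each library left out in turn and other fold limits. The main edgeR fit was also run on simulated counts with known fold changes, and the outcome is not given here. The simulated libraries were drawn independently, without a GC trend and without a mixture of libraries. Depth limits the lowest members, where few reads stand behind a value. Plots and tables were made with Python 3.11.15.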

Additional observations from a re-analysis of the deposited data

How the results depend on the processing

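All fits kept the direction of the median over the members in each comparison, and no member reversed a call. Of the fits of single members, 1776 kept their side of the limits, 72 lost a call and 42 gained one. Without a fold limit the calls numbered 27 of 45 in DCM compared to CK (5.11% of all genes in that direction), 19 in SPM compared to DCM (8.87%) and 13 in SPM compared to CK (12 of them lower, 14.3%). With a fold limit of 1.3 they numbered 26 (3.90%), 15 (5.92%) and 10 (9 of them lower, 8.25%). With the GC offset SPM compared to DCM gave 4 calls (0.608% of all genes), and the type I style minus gamma style difference was -0.34, and the cause was not tested. Leaving out 1 library gave 8 calls (without CK replicate 1, 1.92% of all genes) to 25 (without CK replicate 3, 2.78%) in DCM compared to CK. In SPM compared to DCM it gave 1 (without DCM replicate 2, 0.327%) to 10 (without SPM replicate 1, 2.28%). In SPM compared to CK it gave 2 (without CK replicate 1, SPM replicate 1 or SPM replicate 2, with 3.07%, 3.15% and 2.28%) to 6 (without CK replicate 3, 4.27%). The type I style minus gamma style difference was then 0.065 to 0.32, -0.53 to -0.39 and -0.36 to -0.12. A fit that leaves a group with 2 libraries has fewer samples to estimate the spread from. The replicate block gave 17, 10 and 2 calls, beside 2.12%, 3.28% and 3.76% of all genes. After removal of group means, the correlations between same-numbered libraries of different groups ran from -0.07 to 0.20. Those between libraries of unlike number ran from -0.28 to 0.22, and not every library correlated best with its own number. Deviations within a group of 3 depend on each other, and SPM replicate 2 matched a mixture. These correlations therefore cannot settle whether the replicate numbers pair the libraries. Few reads limit Herc6, Oas3, Mx1 and Igtp.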
